A study of Homo sapiens with 6 samples.

Results

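The unfolded protein response genes described here are 10 genes read out of deposited counts for 28395 gene IDs: HSPA5, HSP90B1, DNAJB9, SDF2L1, HERPUD1, ATF6, XBP1, DDIT3, TRIB3 and STC2. They were taken by symbol from a list that was chosen with earlier results of these data known. All 10 passed the filter on low counts that left 16381 genes for testing. The cells were A375, an established human melanoma line with an activating BRAF mutation, grown in RPMI medium and harvested after 72 h. Of 3 groups of 2 libraries, the first received palbociclib at 1 µM, an inhibitor of the cell cycle kinases CDK4 and CDK6 that the sample titles call PD991. The second received GSK3326595 at 500 nM, an inhibitor of the arginine methyltransferase PRMT5 called CTX in the titles. The vehicle group was kept in 0.01% DMSO, and the labels do not give the vehicle content of the treated cultures. The groups test 1 cell line, 1 dose of each inhibitor and 1 time, and nothing in the labels says that the libraries of a group were grown apart. The p-values below therefore reflect how far these libraries differ, which may be technical variation alone.

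The unfolded protein response is the reaction of a cell to misfolded protein in the endoplasmic reticulum (ER). Its sensors in the ER membrane are IRE1 (gene ERN1), PERK (EIF2AK3) and ATF6. IRE1 splices the XBP1 mRNA so that it encodes an active transcription factor, ATF6 is cut in the Golgi to release one, and PERK phosphorylates the translation factor eIF2α, which slows protein synthesis while favouring translation of ATF4. The factors made by these arms raise ER chaperones, degradation machinery and, under lasting stress, the death-associated factor CHOP (DDIT3). ATF4 also responds to amino acid shortage and other stresses that do not start in the ER. In melanoma cells it has been studied as a response to BRAF inhibitors, among other settings.

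The promoters of the 10 genes differ in the known binding motifs of these factors. ATF6 and spliced XBP1 are known to act through the ER stress response element (ERSE, searched as CCAAT followed after 9 bases by CCACG) and its shorter relative ERSE-II (ATTGG followed after 1 base by CCACG). XBP1 also binds a core of the letters TGACGTGG (UPRE), and ATF4 works through a composite site with C/EBP proteins (CARE, searched as TGATGNAA). The 250 bases upstream of each RefSeq transcript start listed in the promoter reference were searched on both strands for these letters. RefSeq sequence of GRCh38.p14 was found there for all 10 genes. HSPA5, HSP90B1 and XBP1 held an ERSE, HSP90B1 on both strands at separate places, and SDF2L1 and HERPUD1 held an ERSE-II. Among all 35116 promoters of that length in the reference, 0.074% held an ERSE and 0.0513% an ERSE-II. HERPUD1 also held a CARE, which did not overlap its ERSE-II and occurs in 3.14% of all promoters. Among 12466 promoters of tested genes at their first listed start, the shares were 0.12% for ERSE, 0.0963% for ERSE-II and 1.56% for CARE. The UPRE letters, present in 0.612% of all promoters, were in none of the 10 windows. DNAJB9, ATF6, DDIT3, TRIB3 and STC2 held none of these 4 motifs, which says only that the letters are not in these windows. For TRIB3 the listed starts gave windows between 381045 and 381342, inside the gene. The bases before its first coordinate, 380760, were not searched.

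Shown here, in the direction of transcription and ending at the base before the start, are a promoter with an ERSE, both promoters with an ERSE-II, and the promoters of DNAJB9 and STC2, the members that differed most between treatments. Capitals mark ERSE, ERSE-II or CARE matches, and DNAJB9 and STC2 have none. The windows are chr9:125241344-125241593 on the minus strand for HSPA5, chr22:21642052-21642301 on the plus strand for SDF2L1, chr16:56931892-56932141 on the plus strand for HERPUD1, chr7:108569624-108569873 on the plus strand for DNAJB9 and chr5:173328415-173328664 on the minus strand for STC2.
HSPA5: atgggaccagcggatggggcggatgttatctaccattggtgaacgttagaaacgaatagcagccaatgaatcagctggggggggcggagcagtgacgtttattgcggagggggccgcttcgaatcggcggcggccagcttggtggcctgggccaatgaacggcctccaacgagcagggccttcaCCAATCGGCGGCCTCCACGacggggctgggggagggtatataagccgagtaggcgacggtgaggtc
SDF2L1: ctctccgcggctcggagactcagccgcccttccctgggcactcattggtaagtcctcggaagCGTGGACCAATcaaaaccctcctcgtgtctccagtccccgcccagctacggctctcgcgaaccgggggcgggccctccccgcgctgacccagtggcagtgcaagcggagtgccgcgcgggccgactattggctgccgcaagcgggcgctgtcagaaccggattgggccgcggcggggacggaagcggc
HERPUD1: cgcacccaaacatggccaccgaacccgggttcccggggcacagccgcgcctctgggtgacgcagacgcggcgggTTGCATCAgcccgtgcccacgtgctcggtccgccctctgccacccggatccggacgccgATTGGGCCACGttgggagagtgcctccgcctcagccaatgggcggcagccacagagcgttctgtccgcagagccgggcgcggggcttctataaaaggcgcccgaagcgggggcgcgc
DNAJB9: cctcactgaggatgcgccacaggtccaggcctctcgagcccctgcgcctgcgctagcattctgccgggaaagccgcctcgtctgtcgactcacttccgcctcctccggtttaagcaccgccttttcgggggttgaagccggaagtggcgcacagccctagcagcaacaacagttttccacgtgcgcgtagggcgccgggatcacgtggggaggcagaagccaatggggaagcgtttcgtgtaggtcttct
STC2: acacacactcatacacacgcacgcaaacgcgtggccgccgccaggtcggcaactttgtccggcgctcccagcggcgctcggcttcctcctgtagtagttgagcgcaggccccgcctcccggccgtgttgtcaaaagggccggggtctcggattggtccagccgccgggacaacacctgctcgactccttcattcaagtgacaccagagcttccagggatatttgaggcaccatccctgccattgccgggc
The ERSE of HSPA5 lies 66 to 48 bases before the start. The matches in HSP90B1 and XBP1 nearest to their starts, read on the strand where they match, were these:
HSP90B1: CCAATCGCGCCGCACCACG
XBP1: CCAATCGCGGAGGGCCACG
HSP90B1 had this match 89 to 71 bases before its start, and XBP1 had its match 52 to 34 bases before the first of its listed starts. DNAJB9 and STC2 held the last letters of the element, CCACG, alone, 2 times and 1 time, as 33.5% of all promoters do at least once.

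**Figure D1:**
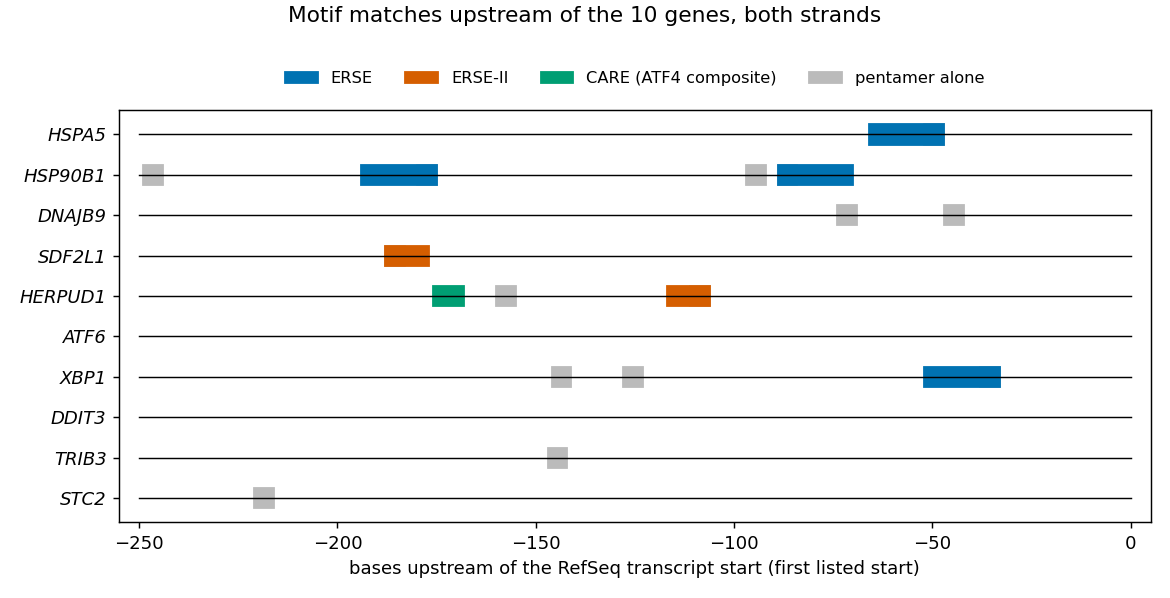
Positions of ERSE, ERSE-II, CARE and single CCACG matches (coloured boxes) in the 250 bases upstream of the first listed start of each of the 10 genes, with bases upstream on the horizontal axis. ERSE or ERSE-II boxes are seen in HSPA5, HSP90B1, SDF2L1, HERPUD1 and XBP1 and in no other row.

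Levels are CPM, counts per 1000000 counts of TMM-adjusted library size (TMM is a scaling that sets the typical gene equal between libraries), and changes are log2 fold changes with approximate standard errors (SE). A gene is called at a Benjamini-Hochberg adjusted p under 0.05 in edgeR's quasi-likelihood test over all 16381 genes. Total counts were 16589153 to 20842099 per library. The melanoma factors SOX10 (122 to 237 CPM) and MITF (57.4 to 87.3 CPM) were present in all 6 libraries, whereas the pigment enzyme gene TYR was at 0 in 5 of them. Other melanocyte markers were low, with PMEL at 1.14 to 2.45 CPM, MLANA at 0.936 to 1.98 and DCT at 0 to 0.466. S100B was at 10.6 and 10.9 CPM with palbociclib, 3.44 and 3.96 with GSK3326595, and 3.68 and 3.12 in DMSO. S100A1 was likewise highest with palbociclib, at 5.84 and 4.8 CPM, against 2.91 and 2.68 with GSK3326595 and 2.95 and 1.82 in DMSO. The 6 blood markers summed to 14.0 to 14.5 CPM with palbociclib, 4.6 to 6.75 with GSK3326595 and 4.73 to 4.9 in DMSO. LYZ made up most of that, at 13.6 to 14.1, 3.49 to 6.34 and 4.53 to 4.63 CPM in these groups, while PTPRC reached at most 0.116 CPM. The 5 fibroblast markers summed to 27.0 to 31.4 CPM with palbociclib, 52.2 to 57.2 with GSK3326595 and 35.5 to 44.1 in DMSO, mostly COL1A1 and PDGFRB, with COL1A2 and DCN under 0.5 CPM. LUM alone of these 5 was highest with palbociclib, at 7.16 and 6.91 CPM, against 2.21 and 3.49 with GSK3326595 and 1.62 and 1.66 in DMSO. The 4 endothelial markers summed to 6.24 to 6.45, 3.84 to 5.88 and 4.63 to 4.68 CPM. Among them KDR was highest with palbociclib, at 2.84 and 3.5 CPM, against 1.16 and 1.63 with GSK3326595 and 0.334 and 0.156 in DMSO. PECAM1 was highest in DMSO, at 3.4 and 4.01 CPM, against 2.18 and 1.63 with palbociclib and 2.97 and 1.34 with GSK3326595. Of the 5 epithelial markers, at 493 to 569, 468 to 602 and 526 to 590.4 CPM in sum, KRT18 made up nearly everything. KRT14 was highest with palbociclib, at 6.5 and 8.35 CPM, against 2.45 and 2.91 with GSK3326595 and 2.12 and 1.98 in DMSO. The cycling marker MKI67 averaged 157 ± 18.7 CPM with palbociclib, 299.8 ± 2.39 with GSK3326595 and 561 ± 16 in DMSO (SD, n = 2 each). The part of these markers and of MKI67 in the results that follow was not tested. In bulk RNA, more transcript per cell and more cells that express it cannot be told apart.

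After 72 h of palbociclib, STC2 stood at 2.15 times and DNAJB9 at 2.07 times its DMSO level, ATF6 was modestly higher and TRIB3 lower, while the ER chaperone genes HSPA5 and HSP90B1, the textbook readouts of the response, were not called. That makes 4 of 10 members called, 3 higher and 1 lower, where 39.5% of all genes tested were called in this comparison, 19.3% higher and 20.2% lower, so the share of members called was near that of genes in general. GSK3326595 gave 0 of 10 members called in edgeR, against 18.8% of all genes (8.58% higher and 10.2% lower). At an unadjusted p under 0.05, edgeR counted 2 members (XBP1 and STC2), and at an adjusted p under 0.05 DESeq2 and limma-voom called 0. The share of all genes at the unadjusted threshold was not counted, here or for the lists below. Between the inhibitors, 4 of 10 members were called against 34.8% of all genes (16.6% higher and 18.2% lower), and they were again STC2, DNAJB9, ATF6 and TRIB3, each in the direction it had against DMSO. The comparisons share libraries and are therefore not independent. Members' median log2 fold changes were 0.15 for palbociclib against DMSO, 0.05 for GSK3326595 against DMSO and 0.07 for palbociclib against GSK3326595, beside -0.02, 0.00 and -0.03 over all genes tested.

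**Figure D2:**
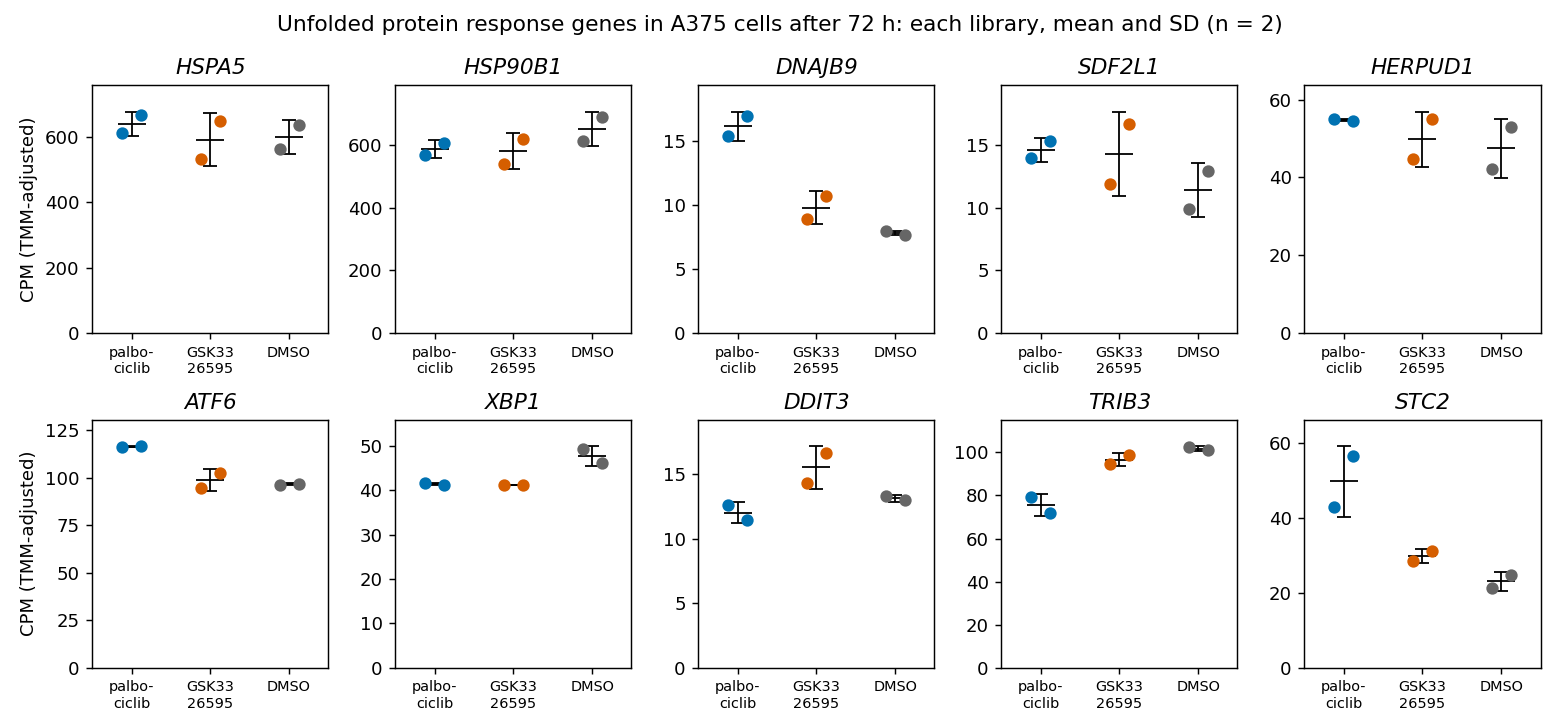
Level of each member in CPM (vertical axes, each from 0) in palbociclib, GSK3326595 and DMSO libraries, with coloured points for the 2 libraries of a group and black lines for mean and SD. DNAJB9 and STC2 have both palbociclib libraries above the other 4 libraries, and TRIB3 has both below them.

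The differences between libraries 1 and 2 correlated weakly across genes between the 3 groups (r = 0.14 to 0.341), and this bears on several members. HSPA5, HSP90B1, SDF2L1, ATF6 and STC2 were higher in library 2 than in library 1 of all 3 groups, which is 5 of 10 members (50.0%) beside 22.3% of all genes tested. XBP1 was higher in library 2 in 0 groups, and DDIT3 and TRIB3 in 1 group each. With the replicate number as a block in the edgeR model, 7 members were called with palbociclib against DMSO (53.2% of all genes), 3 with GSK3326595 against DMSO (35.2%) and 5 between the inhibitors (48.3%). The blocked value is given below beside each member whose call it changed.

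Among the sensors and transducers, ATF6 (Gene ID 22926; GRCh38.p14 chromosome 1, 161766320 to 161964070) is itself both sensor and factor. ATF6 was at 116.1 and 116.5 CPM in palbociclib libraries, 94.6 and 103 in GSK3326595 libraries, and 96.4 and 96.9 in DMSO libraries. Both palbociclib libraries lay above the other 4, and the GSK3326595 pair spanned the DMSO pair. ATF6 rose with palbociclib by 0.27 ± 0.0802 on the log2 scale against DMSO (SE, edgeR adjusted p = 0.0196), a 1.2-fold difference. With 1 library fewer that call was lost, at an adjusted p of 0.101 or 0.0726 when DMSO replicate 1 or 2 was left out and 0.108 or 0.118 when palbociclib replicate 1 or 2 was, although the change stayed between 0.26 and 0.29. Against GSK3326595 it was 0.24 ± 0.0803 higher with palbociclib (edgeR adjusted p = 0.0375), a call lost in DESeq2 (0.0554), with no filter on low counts (0.0778), and without palbociclib replicate 1 (0.172), palbociclib replicate 2 (0.178) or GSK3326595 replicate 1 (0.196). GSK3326595 against DMSO gave 0.03 ± 0.0807 for ATF6 (edgeR adjusted p = 0.841).

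XBP1 (Gene ID 7494; chromosome 22, 28794560 to 28800569, minus strand) encodes the factor that IRE1 activates by splicing. Counts per gene cannot tell its spliced from its unspliced form. XBP1 was at 41.5 and 41.2 CPM with palbociclib, 41.2 and 41.1 with GSK3326595, and 49.2 and 46.1 in DMSO. All 4 inhibitor libraries lay below both DMSO libraries and within 0.5 CPM of each other. The differences from DMSO were -0.21 ± 0.0929 for palbociclib (edgeR adjusted p = 0.099) and -0.21 ± 0.0936 for GSK3326595 (0.136), neither called. In the blocked edgeR fit both were called lower, with adjusted p = 0.0306 for palbociclib and 0.0392 for GSK3326595.

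The genes of the remaining sensors went separate ways. ERN1, which encodes IRE1, was at 8.43 and 9.17 CPM with palbociclib, 7.45 and 7.92 with GSK3326595, and 6.35 and 5.62 in DMSO, so that no inhibitor library overlapped the DMSO pair. Its rise with palbociclib was 0.56 ± 0.168 (SE, edgeR adjusted p = 0.0201), lost without DMSO replicate 2 (0.112), palbociclib replicate 1 (0.0631) or palbociclib replicate 2 (0.14), and the difference with GSK3326595 was 0.36 ± 0.173 (0.169). EIF2AK3, encoding PERK, was at 14.6 to 15.0 CPM with palbociclib, 13.5 to 14.4 with GSK3326595 and 14.3 to 17.1 in DMSO and was called in no comparison.

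The chaperones are led by HSPA5 (Gene ID 3309; chromosome 9, 125234853 to 125241343, minus strand), which encodes BiP, the Hsp70 of the ER that also holds the sensors inactive. HSPA5 was at 612 and 666 CPM in palbociclib libraries, 533 and 649 in GSK3326595 libraries, and 562.5 and 636 in DMSO libraries. The 3 pairs overlapped, and the gap inside each pair was wider than any gap between group means. HSPA5 differed from DMSO by 0.09 ± 0.116 with palbociclib (SE, edgeR adjusted p = 0.557) and by -0.02 ± 0.116 with GSK3326595 (0.928). Palbociclib against GSK3326595 gave 0.11 ± 0.116 (edgeR adjusted p = 0.492).

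HSP90B1 (Gene ID 7184; chromosome 12, 103930410 to 103947926, plus strand) encodes GRP94, the Hsp90 of the ER. HSP90B1 was at 568 and 608 CPM with palbociclib, 539.7 and 621 with GSK3326595, and 612.5 and 691 in DMSO. The palbociclib libraries lay just below both DMSO libraries, and the GSK3326595 pair overlapped the DMSO pair. Neither difference from DMSO was called, with -0.15 ± 0.108 for palbociclib (edgeR adjusted p = 0.293) and -0.17 ± 0.108 for GSK3326595 (0.308). HSP90B1 shares 131 exonic bases with the microRNA gene MIR3652 on the same strand, which had 0 counts in all 6 libraries. A pseudogene copy, HSP90B2P, held 26 to 93 counts per library beside 9267 to 13290 for HSP90B1. How reads that align to HSP90B1 and this copy were counted is not given in the sources used here.

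DNAJB9 (Gene ID 4189; chromosome 7, 108569874 to 108574850, plus strand) encodes ERdj4, a co-chaperone that recruits BiP to IRE1 and to misfolded protein. DNAJB9 was at 15.4 and 17.0 CPM in palbociclib libraries (304 and 355 counts), 8.91 and 10.7 in GSK3326595 libraries (153 and 184 counts), and 7.97 and 7.7 in DMSO libraries (143 and 148 counts). Both palbociclib libraries lay far above the other 4, and the GSK3326595 libraries lay above DMSO by less than the palbociclib libraries did. DNAJB9 averaged 16.2 ± 1.14 CPM with palbociclib and 7.83 ± 0.192 CPM in DMSO (SD, n = 2 each), a rise of 1.05 ± 0.149 on the log2 scale or 2.07-fold (SE, edgeR adjusted p = 0.000176). Against GSK3326595 it was 0.73 ± 0.147 higher with palbociclib (edgeR adjusted p = 0.00252), and GSK3326595 against DMSO gave 0.32 ± 0.156 (0.172). DNAJB9 shares 183 exonic bases with THAP5 on the opposite strand (691 to 981 counts), and the strand setting of the counting is not given in the sources used here. THAP5 had 691 and 765 counts with palbociclib, 790 and 735 with GSK3326595, and 789 and 981 in DMSO, and its part in the DNAJB9 counts was not tested.

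SDF2L1 (Gene ID 23753; chromosome 22, 21642302 to 21644299, plus strand) encodes a small partner of ER Hsp40 proteins. SDF2L1 was at 14.0 and 15.3 CPM with palbociclib, 11.9 and 16.7 with GSK3326595, and 9.86 and 12.9 in DMSO. The palbociclib pair lay above both DMSO libraries, while the GSK3326595 pair was the widest of the 3 and overlapped both other groups. Differences from DMSO of 0.36 ± 0.179 with palbociclib (SE, edgeR adjusted p = 0.131) and 0.33 ± 0.181 with GSK3326595 (0.231) were not called. Both were called in the blocked edgeR fit (adjusted p = 0.0124 with palbociclib and 0.0409 with GSK3326595) and without GSK3326595 replicate 1, where they were 0.37 for palbociclib (0.0488) and 0.55 for GSK3326595 (0.0341).

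HERPUD1 (Gene ID 9709; chromosome 16, 56932142 to 56944864, plus strand) encodes an ER membrane scaffold of the ubiquitin ligase complex that retrieves misfolded proteins for degradation. HERPUD1 was at 54.9 and 54.5 CPM with palbociclib, 44.8 and 54.9 with GSK3326595, and 42.1 and 52.9 in DMSO. The palbociclib pair was tight and just above the higher DMSO library. The differences from DMSO were 0.20 ± 0.124 with palbociclib (SE, edgeR adjusted p = 0.214; 0.0274 with the block, called higher) and 0.07 ± 0.125 with GSK3326595 (0.748).

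On the PERK and ATF4 side, DDIT3 (Gene ID 1649; chromosome 12, 57516588 to 57520517, minus strand) encodes CHOP. DDIT3 was at 12.6 and 11.4 CPM in palbociclib libraries, 14.3 and 16.6 in GSK3326595 libraries, and 13.3 and 13.0 in DMSO libraries. The GSK3326595 libraries were the highest and the palbociclib libraries the lowest, with no overlap among the 3 groups. No difference was called, with -0.13 ± 0.137 for palbociclib against DMSO (edgeR adjusted p = 0.477), 0.24 ± 0.136 for GSK3326595 against DMSO (0.249) and -0.37 ± 0.136 for palbociclib against GSK3326595 (0.0533). The last was called lower with the block (edgeR adjusted p = 0.0123) and without GSK3326595 replicate 1 (-0.46, 0.035). DDIT3 shares 105 exonic bases with AC022506.1 on the same strand, which was not matched to a counted gene ID. DDIT3 also shares 62 exonic bases with MARS1 on the opposite strand, a gene with 3785 to 5941 counts per library beside 238 to 286 for DDIT3. MARS1 had 3785 and 4209 counts with palbociclib, 5444 and 5941 with GSK3326595, and 4878 and 5720 in DMSO, the same order of groups as DDIT3, and its part in the DDIT3 counts was not tested.

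TRIB3 (Gene ID 57761; chromosome 20, 380760 to 397559, plus strand) encodes a pseudokinase induced by ATF4 and CHOP that dampens both. TRIB3 was at 79.3 and 71.9 CPM with palbociclib, 94.6 and 98.8 with GSK3326595, and 102.5 and 100.9 in DMSO. Both palbociclib libraries lay below the other 4. TRIB3 averaged 75.6 ± 5.28 CPM with palbociclib and 101.7 ± 1.15 CPM in DMSO (SD, n = 2 each), a difference of -0.43 ± 0.0835 or 1.35-fold lower (SE, edgeR adjusted p = 0.00166). Against GSK3326595 it was -0.36 ± 0.0838 (edgeR adjusted p = 0.0063), a call lost without palbociclib replicate 2 (-0.28, 0.113). GSK3326595 against DMSO gave -0.07 ± 0.0832 for TRIB3 (edgeR adjusted p = 0.59).

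STC2 (Gene ID 8614; chromosome 5, 173314723 to 173328414, minus strand) encodes stanniocalcin 2, a secreted glycoprotein whose transcript rises in ER stress and hypoxia. STC2 was at 43.1 and 56.5 CPM in palbociclib libraries (850 and 1176 counts), 28.5 and 31.1 in GSK3326595 libraries (489 and 534 counts), and 21.3 and 24.9 in DMSO libraries (382 and 479 counts). The groups did not overlap, with palbociclib highest and DMSO lowest. STC2 averaged 49.8 ± 9.41 CPM with palbociclib and 23.1 ± 2.56 CPM in DMSO (SD, n = 2 each), a rise of 1.11 ± 0.137 or 2.15-fold (SE, edgeR adjusted p = 6.12e-05). It was 0.74 ± 0.135 higher with palbociclib than with GSK3326595 (edgeR adjusted p = 0.00134). For GSK3326595 against DMSO the difference of 0.37 ± 0.14 was not called (edgeR adjusted p = 0.0906), and it was called with the block (0.00196).

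ATF4, the factor upstream of DDIT3, TRIB3 and STC2, was at 158 and 144 CPM with palbociclib, 213 and 207 with GSK3326595, and 235 and 245 in DMSO. The groups did not overlap, and palbociclib was lowest. ATF4 transcript fell by 0.67 on the log2 scale with palbociclib against DMSO (SE 0.0856, edgeR adjusted p = 8.11e-05) and by 0.48 against GSK3326595 (SE 0.0857, 0.00123). The difference of -0.19 ± 0.0851 with GSK3326595 against DMSO was not called (edgeR adjusted p = 0.139; 0.0212 with the block). With palbociclib, then, STC2 stood opposite to TRIB3 and ATF4. ATF4 activity is set largely by translation, which these counts do not measure.

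**Figure D3:**
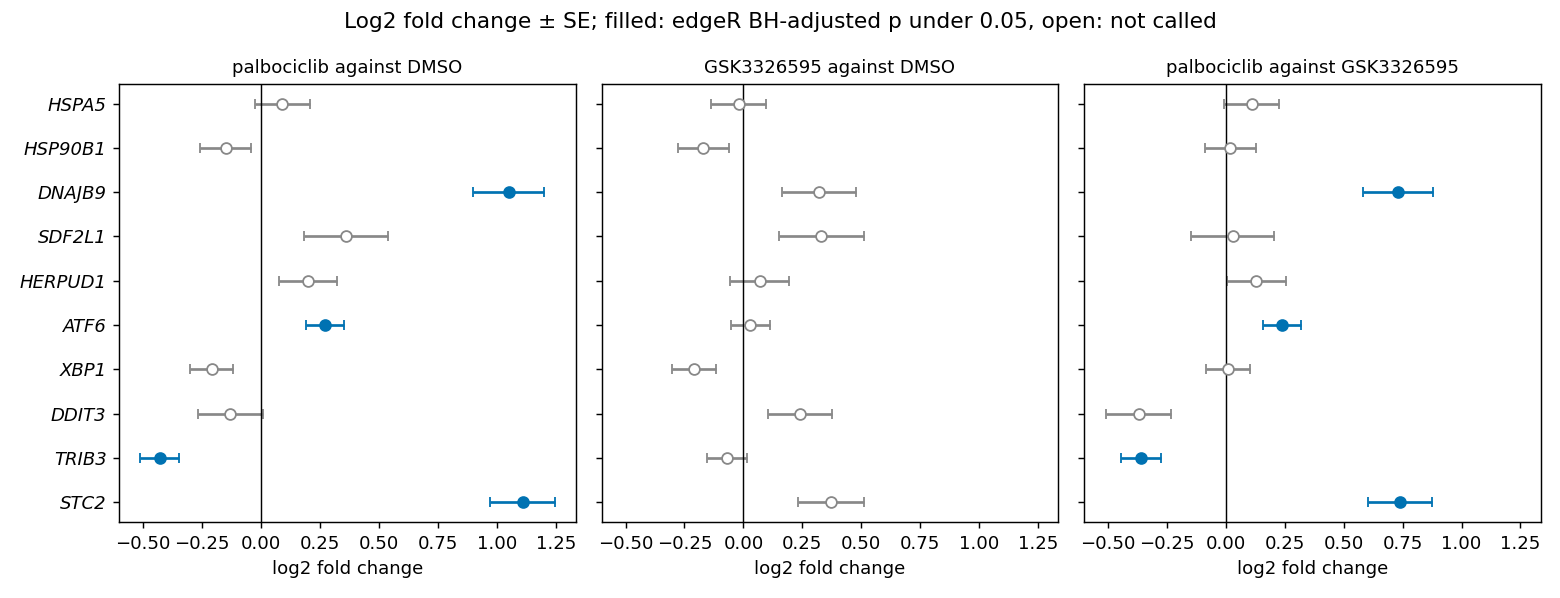
Log2 fold change (horizontal axis) with SE bars for each member in palbociclib against DMSO, GSK3326595 against DMSO and palbociclib against GSK3326595, filled where edgeR's adjusted p is under 0.05. STC2, DNAJB9 and ATF6 are filled to the right and TRIB3 to the left in the outer panels, and the middle panel has no filled point.

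Set against the promoter matches, the 5 members with an ERSE or ERSE-II were not called with palbociclib against DMSO. Of the 5 members without these motifs in the windows searched, TRIB3 among them, 4 were called, beside 39.5% of all genes. Of those 4, ATF6 lost its call when any palbociclib or DMSO library was left out. With the block, SDF2L1, HERPUD1 and XBP1 also passed, XBP1 as lower, so that 3 of 5 members with the motifs and 4 of 5 without them were called, beside 53.2% of all genes. This grouping was made with the values known and was not tested.

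Per kilobase of exon, so that genes can be compared, the members' levels in DMSO spanned from 2.89 CPM per kb for DNAJB9 to 227.5 for HSP90B1. In falling order they were HSP90B1, HSPA5 (153 CPM per kb), TRIB3 (35.1), XBP1 (23.4), HERPUD1 (16.1), SDF2L1 (13.2), ATF6 (12.9), DDIT3 (10.1), STC2 (4.32) and DNAJB9. HERPUD1 and SDF2L1, and SDF2L1 and ATF6, overlapped between their DMSO libraries, and other neighbours in this order did not. The members that rose most with palbociclib were thus the lowest per kilobase, and with palbociclib STC2 stood at 9.3 ± 1.76 CPM per kb and DNAJB9 at 5.98 ± 0.42 (SD, n = 2 each).

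The genes whose centred log2 CPM over the 6 libraries ran closest to HSPA5, by Euclidean distance among 13181 genes, were CAVIN1 (distance 0.0576), TRAPPC4 (0.059) and ACTR2 (0.0697). CAVIN1, which coats caveolae, was at 576 and 602 CPM with palbociclib, 498 and 586 with GSK3326595, and 519 and 577 in DMSO. Closest to STC2 were FRMPD4 (0.14), TIMP1 and AKR1B10 (0.177 each). TIMP1, a secreted inhibitor of matrix metalloproteinases, was at 175.5 and 213 CPM with palbociclib, 105.5 and 134 with GSK3326595, and 82.6 and 97.8 in DMSO. Like HSPA5 and STC2, all the genes named here as closest were higher in library 2 than in library 1 of all 3 groups. The distances therefore also take in that difference between libraries, and they are descriptions over 6 libraries from 3 groups.

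The rest of the pathway was read from 7 lists with 117 genes in all, every one of which passed the filter on low counts. With palbociclib against DMSO 34 were called higher and 13 lower, where 19.3% of all genes tested were higher and 20.2% lower. The higher count was smaller without DMSO replicate 1 or either palbociclib replicate, and the lower count without DMSO replicate 2 or either palbociclib replicate. Without either palbociclib replicate, fewer of all genes were called as well. The block gave 45 higher and 28 lower, where 53.2% of all genes were called in either direction. With GSK3326595 12 were higher and 11 lower, where 8.58% and 10.2% of all genes were. The higher count was smaller without DMSO replicate 1 or GSK3326595 replicate 2 and larger without GSK3326595 replicate 1. The lower count was smaller without DMSO replicate 2 or GSK3326595 replicate 1. Without either DMSO replicate, fewer of all genes were called as well. The block gave 32 higher and 23 lower, where 35.2% of all genes were called in either direction. Between the inhibitors the block called 48.3% of all genes. These shares stand beside the blocked counts of single lists below. Calls over all genes also moved with 1 library left out, as the last section gives. The median log2 fold changes over the 117 genes were 0.07 and 0.04 in these comparisons.

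Of 22 ER chaperones and oxidative folding enzymes, 10 were higher and 1 lower with palbociclib, beside 19.3% and 20.2% of all genes tested, with a median log2 fold change of 0.27. SIL1, the nucleotide exchange factor of BiP, averaged 34.8 ± 1.69 CPM with palbociclib and 22.3 ± 2.23 CPM in DMSO (SD, n = 2 each; 0.64 ± 0.11, edgeR adjusted p = 0.000706). ERO1B, an oxidase that feeds disulfide bonds to protein disulfide isomerase, rose by 0.74 ± 0.144 (edgeR adjusted p = 0.00163). Its relative ERO1A was the 1 lower gene, at -0.28 ± 0.087 (0.0238), a call lost in DESeq2 (0.0615) and without DMSO replicate 2 (0.289), palbociclib replicate 1 (0.128) or palbociclib replicate 2 (0.136). The count of higher chaperone genes was smaller without DMSO replicate 1 or either palbociclib replicate. Without either palbociclib replicate, fewer of all genes were called as well. With the block 13 were higher and 2 lower, where 53.2% of all genes were called in either direction. With GSK3326595, where 18.8% of all genes were called, edgeR, DESeq2 and limma-voom called 0 of the 22, with 1 at an unadjusted p under 0.05 in edgeR, and the block gave 2.

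Of 22 genes of translocation and the secretory machinery, 9 were higher and 1 lower with palbociclib (median 0.17; 19.3% and 20.2% of all genes). SEC61A1, the channel subunit through which proteins enter the ER, averaged 544 ± 17.4 CPM with palbociclib and 361 ± 5.83 CPM in DMSO (SD, n = 2 each; 0.59 ± 0.104, edgeR adjusted p = 0.000818). SEC24D, a cargo adaptor of vesicles leaving the ER, rose by 0.46 ± 0.0859 (edgeR adjusted p = 0.00127). SRP72, a signal recognition particle protein, was lower by -0.23 ± 0.0859 (edgeR adjusted p = 0.0465), a call lost in DESeq2 (0.0797) and without any library except GSK3326595 replicate 2 (0.057 to 0.287). The count of higher genes came to 5 without DMSO replicate 1. With GSK3326595, 5 were higher and 3 lower (median 0.12; 8.58% and 10.2% of all genes). The translocon-associated SSR2 (0.54 ± 0.0955, edgeR adjusted p = 0.00251) and SSR3 (0.37 ± 0.0954, 0.0191; lost without DMSO replicate 1, 0.186) were higher. KDELR3, a receptor that returns chaperones to the ER, averaged 10.2 ± 0.375 CPM with GSK3326595 and 18.4 ± 1.55 CPM in DMSO (SD, n = 2 each; -0.85 ± 0.134, edgeR adjusted p = 0.00123). SPCS3, a signal peptidase subunit, was also lower (-0.50 ± 0.101, edgeR adjusted p = 0.00577; lost without DMSO replicate 2, 0.0536). The count of 5 higher genes was 1 without DMSO replicate 1, 2 without GSK3326595 replicate 2, 3 without DMSO replicate 2 or either palbociclib replicate, and 9 without GSK3326595 replicate 1 or with the block. The count of 3 lower genes was 1 without DMSO replicate 2.

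Of 22 genes of ER-associated degradation, the route on which HERPUD1 acts, 6 were higher and 2 lower with palbociclib (median 0.10; 19.3% and 20.2% of all genes). SYVN1, the ubiquitin ligase HRD1 of that route, averaged 70.3 ± 2.74 CPM with palbociclib and 41.9 ± 1.09 CPM in DMSO (SD, n = 2 each; 0.75 ± 0.0929, edgeR adjusted p = 6.5e-05). OS9, a lectin that delivers glycoproteins to it, rose by 0.51 ± 0.0793 (edgeR adjusted p = 0.000376). The 2 lower genes were DERL3, at 0.645 ± 0.165 CPM with palbociclib and 1.49 ± 0.491 CPM in DMSO (-1.20 ± 0.406, edgeR adjusted p = 0.0335), and the conjugating enzyme UBE2J1 (-0.26 ± 0.0951, 0.0471). Neither was called in DESeq2 (0.147 for DERL3 and 0.128 for UBE2J1), and their count came to 0 without DMSO replicate 1 or either palbociclib replicate and to 1 without DMSO replicate 2. With GSK3326595 3 were higher and 3 lower (median 0.13; 8.58% and 10.2% of all genes). AUP1, which recruits the conjugating enzyme UBE2G2, averaged 115.0 ± 0.17 CPM with GSK3326595 and 70.8 ± 1.59 CPM in DMSO (SD, n = 2 each; 0.70 ± 0.0783, edgeR adjusted p = 0.000121). FAF2, an adaptor that recruits the extraction ATPase, was higher by 0.32 ± 0.0835 (edgeR adjusted p = 0.0207; lost without DMSO replicate 1, 0.134, DMSO replicate 2, 0.0963, or GSK3326595 replicate 2, 0.112). The conjugating enzymes UBE2G2 (-0.56 ± 0.105, edgeR adjusted p = 0.0035) and UBE2J1 (-0.45 ± 0.0962, 0.00746) were lower. The 3 higher genes came to 1 without either DMSO replicate or GSK3326595 replicate 2, to 5 without GSK3326595 replicate 1 and to 10 with the block.

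Of 18 genes of the integrated stress response, the programme of phosphorylated eIF2α and ATF4, 3 were higher and 5 lower with palbociclib (median -0.14; 19.3% and 20.2% of all genes). CEBPG, a dimer partner of ATF4, averaged 15.9 ± 0.351 CPM with palbociclib and 37.2 ± 3.51 CPM in DMSO (SD, n = 2 each; -1.23 ± 0.11, edgeR adjusted p = 4.97e-06). ASNS, asparagine synthetase, fell by 1.19 on the log2 scale (SE 0.117, edgeR adjusted p = 1.12e-05). SESN2, a stress-induced regulator of mTORC1 that is also a p53 target, rose by 0.73 ± 0.151 (edgeR adjusted p = 0.00234), as did ATF5 by 0.61 ± 0.13 (0.00286). The count of lower genes came to 3 without DMSO replicate 2 or either palbociclib replicate and to 8 with the block. With GSK3326595, 3 were higher and 2 lower (median 0.10; 8.58% and 10.2% of all genes). ATF3, a stress-induced factor, averaged 17.4 ± 2.09 CPM with GSK3326595 and 6.81 ± 1.17 CPM in DMSO (SD, n = 2 each; 1.36 ± 0.179, edgeR adjusted p = 0.000369), and SESN2 rose by 1.04 ± 0.151 (0.000664). The cystine transporter SLC7A11 was lower by -0.81 ± 0.102 (edgeR adjusted p = 0.00026), and CEBPG by -0.37 ± 0.106 (0.0315). The CEBPG call was lost in DESeq2 (0.0703) and without any library except DMSO replicate 1 (0.0514 to 0.213). The higher count came to 5 without GSK3326595 replicate 1 and to 6 with the block. Between the inhibitors, 2 of these 18 genes were higher and 7 lower with palbociclib than with GSK3326595 (median -0.35, beside 16.6% and 18.2% of all genes). The lower count came to 13 with the block. The other lists also held calls in this comparison. They were 8 higher and 1 lower of 22 ER chaperone genes, 5 and 1 of 22 translocation genes, and 6 and 3 of 22 degradation genes. Of the lists described next, the sensors gave 3 and 1 of 10, heat shock genes 1 and 1 of 14, and relatives of the members 4 and 2 of 9.

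Among 10 genes of the sensors and their processing, palbociclib gave 3 higher and 2 lower (median 0.00; 19.3% and 20.2% of all genes). Besides ERN1, CREB3, an ER-bound factor related to ATF6, was higher (0.65 ± 0.105, edgeR adjusted p = 0.00046). MBTPS1, a Golgi protease that cuts ATF6, averaged 237 ± 8.9 CPM with palbociclib and 186 ± 10.7 CPM in DMSO (SD, n = 2 each). Its difference was 0.35 ± 0.0862 (SE, edgeR adjusted p = 0.00664). With GSK3326595 it averaged 145.5 ± 7.39 CPM, at -0.35 ± 0.0869 against DMSO (edgeR adjusted p = 0.0155). MBTPS2, another processing gene of this list, was called in neither comparison. It was at -0.04 with palbociclib (edgeR adjusted p = 0.736) and -0.04 with GSK3326595 (0.802), and was named after its values were seen. MBTPS1 thus rose with palbociclib and fell with GSK3326595, and palbociclib against GSK3326595 gave 0.70 ± 0.0869 (edgeR adjusted p = 0.000111). Its palbociclib call was lost without DMSO replicate 1 (0.0732) or palbociclib replicate 1 (0.0759), and its GSK3326595 call without DMSO replicate 2 (0.117) or GSK3326595 replicate 1 (0.0735). The lower genes were EIF2S1, encoding eIF2α (-0.32 ± 0.0868, edgeR adjusted p = 0.0116), and CREB3L2 (-0.25 ± 0.0829, 0.0311). Their count came to 0 without DMSO replicate 2 or either palbociclib replicate and to 1 without DMSO replicate 1, and CREB3L2 was not called in DESeq2 (0.084). The higher count came to 1 without palbociclib replicate 1. With GSK3326595, where 18.8% of all genes were called, edgeR without the block called MBTPS1 alone of this list, and with the block it called 5 genes, 2 higher and 3 lower, where 35.2% of all genes were called.

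Cytosolic heat shock genes, which answer misfolding outside the ER, were read as a list of 14. With palbociclib 2 were lower and 0 higher in edgeR (median -0.22; 20.2% of all genes lower and 19.3% higher), with 1 higher at an unadjusted p under 0.05 and 0 higher in DESeq2 and limma-voom. That gene was HSF1, the master factor of the response, at 0.21 (edgeR adjusted p = 0.0598) and called higher in 6 of 14 alternatives, among them the block (0.00936) and the fit without GSK3326595 replicate 1 (0.0491). The block called 2 higher, HSF1 and HSPA4 (0.0322). These genes were chosen for naming after their values were seen. HSP90AA1, the inducible cytosolic Hsp90, averaged 958 ± 87.3 CPM with palbociclib, 1392 ± 176 CPM with GSK3326595 and 1987 ± 417 CPM in DMSO (SD, n = 2 each). It fell by 1.05 on the log2 scale with palbociclib (SE 0.153, edgeR adjusted p = 0.000215) and by 0.51 with GSK3326595 (SE 0.152, 0.0347), the GSK3326595 call being lost with only the groups compared in the fit (0.0611) and without DMSO replicate 2 (0.289), GSK3326595 replicate 1 (0.103) or either palbociclib replicate (0.0571 and 0.057). HSPB1 was lower with palbociclib (-0.46 ± 0.111, edgeR adjusted p = 0.00644; lost without palbociclib replicate 2, 0.075) and with GSK3326595 (-0.50 ± 0.112, 0.00937). The palbociclib count of lower genes came to 6 without DMSO replicate 1, 1 without palbociclib replicate 2 and 8 with the block. The GSK3326595 count, also 2 where 10.2% of all genes were lower, came to 5 without DMSO replicate 1, 6 without GSK3326595 replicate 2 or with the block, and 1 without any of the other 4 libraries.

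Relatives of the members gave 3 of 9 called higher with palbociclib (median -0.01; 19.3% of all genes) and 1 of 9 higher with GSK3326595 (8.58% of all genes). With palbociclib edgeR called 0 lower, with 2 at an unadjusted p under 0.05 and 0 in DESeq2 and limma-voom. The mitochondrial chaperone gene HSPA9 was called lower with library totals (edgeR adjusted p = 0.036) and with only the groups compared in the fit (0.0393). Its log2 fold change was -0.39 without DMSO replicate 1 and -0.27 without GSK3326595 replicate 2. TRAP1 was called lower with library totals (edgeR adjusted p = 0.0356). The block called 4 higher and 2 lower, HSPA9 and TRAP1, both likewise named after their values were seen. The GSK3326595 count came to 0 without DMSO replicate 1 or GSK3326595 replicate 2, 2 without GSK3326595 replicate 1, and 3 higher and 1 lower with the block. STC1, the paralogue of STC2, averaged 109.7 ± 14.7 CPM with palbociclib and 39.6 ± 8.61 CPM in DMSO (SD, n = 2 each; 1.47 ± 0.171, edgeR adjusted p = 3.87e-05). Both stanniocalcin genes thus rose. SDF2, the paralogue of SDF2L1, averaged 50.2 ± 0.221 CPM with palbociclib and 29.7 ± 1.9 CPM in DMSO (SD, n = 2 each; 0.76 ± 0.0976, edgeR adjusted p = 8.62e-05), whereas SDF2L1 was not called. With GSK3326595 SDF2 was higher by 0.39 ± 0.0989 (edgeR adjusted p = 0.0172), lost without DMSO replicate 1 (0.162) or GSK3326595 replicate 2 (0.0642).

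**Figure D4:**
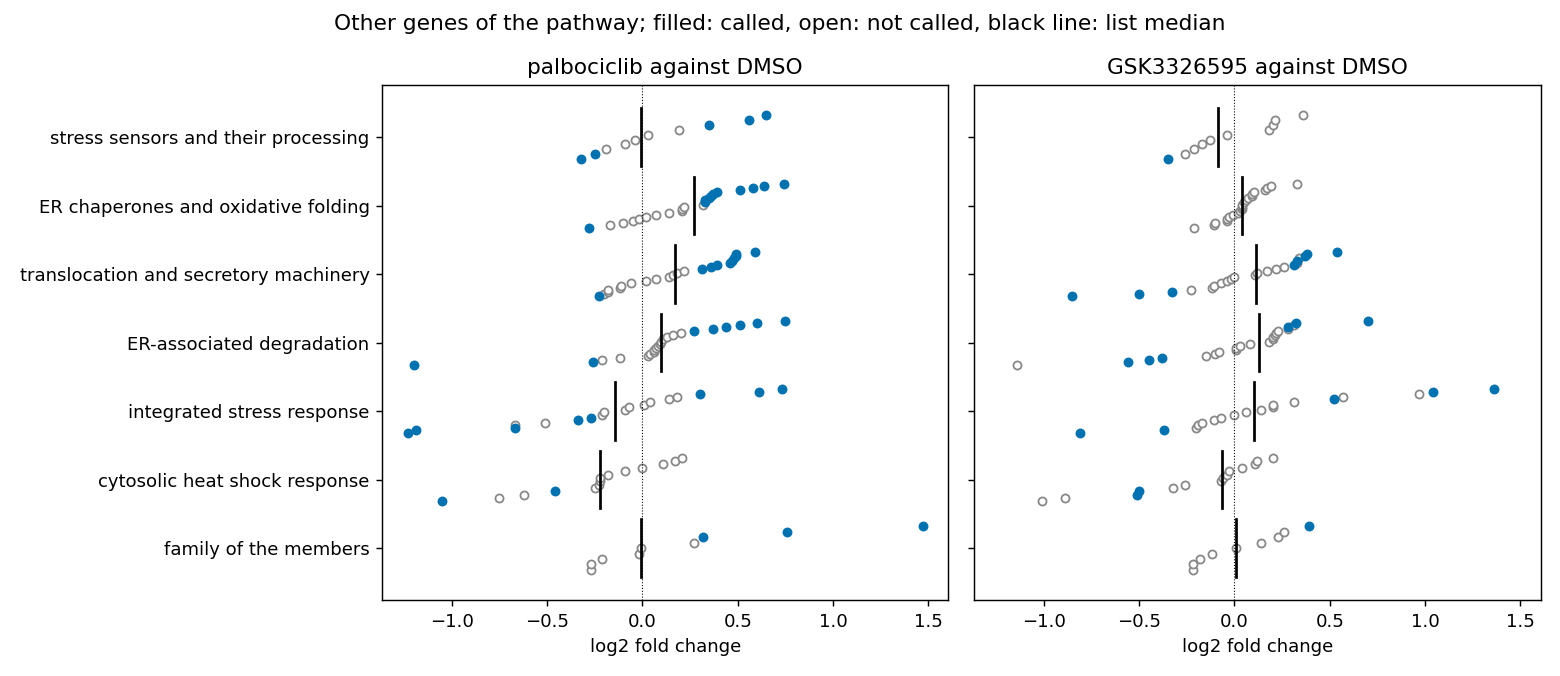
Log2 fold change (horizontal axis) of each gene of the 7 lists with palbociclib against DMSO and GSK3326595 against DMSO, 1 point per gene, filled where called by edgeR, with a black line at the list median. The ER chaperone row has its median at 0.27 with palbociclib and at 0.04 with GSK3326595, where it has no filled point.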

How the data were processed

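Total RNA depleted of ribosomal RNA from A375 cells was sequenced in 6 libraries, 2 per group. The authors deposited raw read counts per NCBI Gene ID for each library, with no normalization. The submitters' processing notes name featureCounts 1.6.2, HISAT2, cutadapt 1.7, CASAVA 1.8.2, limma and build hg38; for the annotation, strand setting and multiply aligned reads, the method was not given in the sources used here. Gene symbols and coordinates were taken from RefSeq on GRCh38.p14 (27745 IDs matched, 650 did not), exon lengths from GENCODE v29 and promoter sequence from RefSeq.

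Counts were fitted with edgeR 4.0.16 (R 4.3.3): filterByExpr with a minimum count of 10, TMM scaling, quasi-likelihood fits with a coefficient for each group over all 6 libraries (3 residual degrees of freedom, biological coefficient of variation 0.0839), two-sided F tests and Benjamini-Hochberg adjustment over 16381 genes. The SE was taken as the size of the log2 fold change over the root of F. The procedure was also run on simulated counts in which 200 genes were changed in the palbociclib libraries. Those counts had the same biological coefficient of variation for every gene and no replicate effect. The run therefore cannot show how the fit behaves on data such as these. The alternatives were DESeq2 size factors or library totals in edgeR, DESeq2 1.42.0, limma-voom (limma 3.58.1), no filter, a filter at 1 CPM, a fit of only the groups compared, the replicate block, and leaving out each library. Replicate differences correlated across genes between groups at 0.179 (palbociclib and DMSO), 0.341 (GSK3326595 and DMSO) and 0.14 (palbociclib and GSK3326595). The replicate numbers come from the labels, which do not say that same-numbered libraries belong together. Whether the libraries are paired is therefore not known. The main fit had no block, and the fit with the block is given as an alternative. Replicates were further apart than counting noise (chi-square per degree of freedom 5.38 to 10.2), and none was merged.

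The members, the lists and the rule for naming genes were chosen with earlier results of these data known. Named are the 10 members, ERN1, EIF2AK3 and ATF4, in each list the 2 called genes of smallest p in each direction for each inhibitor against DMSO, and the 3 genes nearest in pattern to HSPA5 and to STC2. Motifs were searched with Python 3.11.15.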

Additional observations from a re-analysis of the deposited data

How the results depend on the processing

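Over the 3 comparisons and 10 members, 14 alternatives gave 420 values: 389 kept direction and side of the threshold, 10 lost a call, 10 gained one and 11 changed sign. With the replicate block, 7 members were called for palbociclib against DMSO and 3 for GSK3326595 against DMSO, where 5769 genes in all were called against 3081 without the block; beyond the members named with blocked values, the block changed no member's call. Leaving out 1 library gave 3 to 5 members for palbociclib against DMSO, 0 to 1 for GSK3326595 against DMSO and 2 to 4 for palbociclib against GSK3326595. Over all genes it gave 4007 to 7259, 1765 to 3229 and 3310 to 5542 calls, against 6470, 3081 and 5707. Every sign change was in an uncalled value with 1 library left out. For GSK3326595 against DMSO, where such fits ranged from -0.17 to 0.11 for HSPA5, -0.11 to 0.24 for HERPUD1 and -0.03 to 0.09 for ATF6, HSPA5 was 0.07 without DMSO replicate 2 and 0.11 without GSK3326595 replicate 1, HERPUD1 was -0.11 without DMSO replicate 1 and -0.09 without GSK3326595 replicate 2, and ATF6 was -0.0001 without DMSO replicate 1 and -0.03 without GSK3326595 replicate 2. For palbociclib against GSK3326595, with ranges of -0.01 to 0.26 for HSPA5, -0.07 to 0.13 for HSP90B1 and -0.18 to 0.29 for SDF2L1, HSPA5 was -0.01, HSP90B1 -0.07 and SDF2L1 -0.18 without GSK3326595 replicate 1, and HSP90B1 was -0.03 and SDF2L1 -0.04 without palbociclib replicate 2. The cause was not tested. Other scalings moved the median of all genes by at most 0.02. With 2 libraries a group, a fit without 1 library assumes that the lone library varies like the other groups. The lowest member counts, 143 to 355 for DNAJB9, 177 to 318 for SDF2L1 and 238 to 286 for DDIT3, carry the most counting error.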
